A study of Mus musculus with 15 samples.

Results

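The Fc gamma receptors of the mouse were followed as 5 genes: the activating receptors Fcgr1, Fcgr3 and Fcgr4, their signalling partner Fcer1g, and the inhibitory receptor Fcgr2b. They were taken by name from the 54532 genes of a bulk table and the 32285 genes of a pair of single-cell matrices, and all 5 were present in each. The cKO 5xFAD group (7 forebrain libraries) carried ATG7FF, Cx3cr1CreER and 5xFAD, and the control 5xFAD group (6 forebrain libraries) carried ATG7FF and 5xFAD with no Cre. The cKO microglia (ATG7FF with Cx3cr1CreER, pooled from 4 forebrains) and the control microglia (ATG7FF, pooled from 3 forebrains) had no 5xFAD and gave 1 library each, of cells sorted as CD11b-high and CD45-low. All were C57BL/6, were given 1.5 mg of tamoxifen at 2 months and were sampled at 8 months. ATG7FF is a floxed allele of Atg7, an enzyme of autophagosome formation. Cx3cr1CreER is a tamoxifen-dependent Cre inserted into Cx3cr1, so it acts in microglia and other Cx3cr1-expressing cells and takes up a copy of Cx3cr1, and no control group carried it. 5xFAD is a transgenic model with amyloid deposition in the brain. Whether each bulk library is its own mouse is not in the labels; the spread behind every p-value is that between libraries, which may be technical.

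Fc gamma receptors bind the constant part of IgG and tie antibody-coated material to engulfment by macrophages and microglia. Activating receptors signal through the common gamma chain made by Fcer1g, whose ITAM recruits the kinase Syk, while FcγRIIB, made by Fcgr2b, carries an ITIM that recruits the lipid phosphatase SHIP1 and dampens the signal. In the brain most of these receptors are found on microglia, and Fcgr2b is also known from B cells and some endothelial cells.

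Bulk totals ran between 16658707 and 22355512 reads, and the single-cell libraries held 40701821 (cKO) and 9314315 (control) UMIs. After filters, 8874 cKO and 6243 control cells were kept, of which 7471 (84.2%) and 6224 (99.7%) lay in microglia-like clusters, with a median of 4842 and 1392 UMIs. All 14 microglia markers were above 20 CPM (counts per 1000000 counts of the library) there. Marker lists of other cells summed to 14.9 CPM in cKO and 5.83 in control for border macrophages (3 of 9 genes at 0 in both), 12.6 and 12.4 for monocytes (1 of 9), 194 and 205 for neutrophils (5 of 8) and 41.5 and 40.5 for B and plasma cells (3 of 7). Single genes made up most of the border macrophage, neutrophil and B cell sums: Mrc1 had 495 UMIs in cKO and 43 in control (CPM ratio 2.74, 2.01 to 3.84), Csf3r had 194 and 205 CPM, and Cd79b had 41.3 and 40.1 CPM, while Cd163, Lyve1, Ly6c2, Ly6g and Ms4a1 had 0 UMIs. Monocyte Ccr2 had 3.72 CPM in cKO and 7.92 in control, and S100a4 5.85 and 2.86. The libraries shared 22 cell barcodes, 11 of them among microglia-like cells of each. Atg7 itself did not differ in either data set (bulk 24.3 ± 1.32 CPM in cKO and 24.3 ± 2.09 CPM in control; edgeR adjusted p = 0.991; single cells 17.3 and 15.8 UMI CPM), but whole-gene counts and 3' tags include the exons outside a floxed segment, and bulk counts include every other cell type, so this does not check the deletion.

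All but Fcgr1 are neighbours. On chromosome 1 (mm10), Fcgr2b at chr1:170958617-170976547, Fcgr4 at chr1:171018920-171029761, Fcgr3 at chr1:171051174-171064935 and Fcer1g at chr1:171229572-171234365 lie within a block of 275.7 kb, with Fcgr4 on the plus strand and the rest on the minus strand. Fcgr1 stands apart at chr3:96282909-96293969. Of the 42 other genes within 200 kb of the block, 25 were tested in bulk and 0 fell or rose (edgeR adjusted p under 0.05). Their median log2 change was 0.07, from -0.55 to 0.33. Over all 16956 genes tested 0.277% fell and 0.0531% rose, so a count of 0 among 25 is near that share. Fcgr2b and Fcgr3 are related in sequence: 166 of the 1733 stretches of 50 bases in Fcgr3 exons (9.58%) also occur in Fcgr2b exons, and an antisense gene, Gm38204, overlaps 3175 bases of Fcgr2b. How the authors' counting treated strand and repeated reads is not given in the sources used here, and part of the Fcgr2b and Fcgr3 reads is therefore uncertain. No stretch of Fcgr1, Fcgr4 or Fcer1g exons was shared with another gene.

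The upstream sequences of Fcgr1 and Fcgr4 are shown because these receptors were highest in a cluster of microglia led by interferon-induced genes. RefSeq (GRCm38.p6, the mm10 assembly) gives the 250 bases before the start of Fcgr1 (chr3:96293970-96294219, minus strand). For Fcgr4 the window of 250 bases (chr1:171018676-171018925, plus strand) reaches into an annotated exon. Only its first 244 bases (chr1:171018676-171018919) are printed. Capitals mark matches, on either strand, to GAGGAA (a PU-box core, bound by the myeloid factor PU.1), TTCNNNGAA (a GAS element, bound by STAT dimers) or a pair of GAAA separated by any pair of bases (an ISRE core, bound by interferon regulatory factors).
Fcgr1: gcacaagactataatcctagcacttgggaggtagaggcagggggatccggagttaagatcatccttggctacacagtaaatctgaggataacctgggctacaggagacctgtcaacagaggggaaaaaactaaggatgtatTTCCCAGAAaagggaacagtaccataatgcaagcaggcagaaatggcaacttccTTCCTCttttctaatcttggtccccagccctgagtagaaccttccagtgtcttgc
Fcgr4: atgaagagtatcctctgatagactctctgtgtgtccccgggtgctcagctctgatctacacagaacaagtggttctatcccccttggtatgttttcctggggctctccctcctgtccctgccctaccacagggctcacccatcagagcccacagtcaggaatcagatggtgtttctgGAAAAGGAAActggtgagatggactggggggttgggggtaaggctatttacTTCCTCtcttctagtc
Fcgr1 held a GAS match 100 bases and a PU-box match 49 bases upstream of its start, and Fcgr4 held an ISRE core 63 bases and a PU-box 16 bases upstream. Distances count from the end of the window of 250 bases, which for Fcgr4 lies beyond the last printed base. Matches did not overlap each other. Of 32851 RefSeq windows of 250 bases, 23.25% held the PU-box, 7.02% the GAS element and 2.98% the ISRE core. Fcgr3 held a PU-box match only, and the windows of Fcgr2b and Fcer1g held none of the 3 patterns. A match is a description of letters and not a measured site.

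The bulk comparison asked whether Fc receptor expression in 5xFAD forebrain differed with microglial Atg7. Fcgr3 and the inhibitory Fcgr2b fell in cKO forebrains, the activating Fcgr1 was lower on average without passing the test, and Fcer1g stayed closest to the control level. Of the 4 members tested, 2 fell and 0 rose, where 0.277% of all 16956 genes tested fell and 0.0531% rose. Both also had every cKO library below every control library, which held for 0.313% of tested genes. In whole-forebrain RNA, fewer cells of a type and less RNA per cell cannot be told apart.

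**Figure D1:**
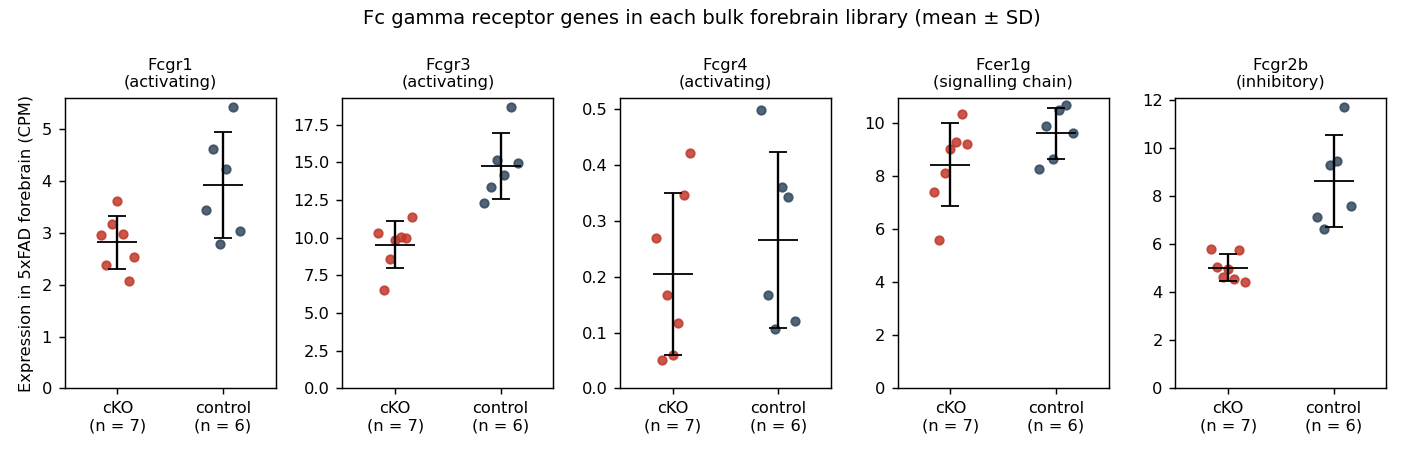
CPM of each gene in the bulk libraries, cKO 5xFAD (n = 7) left of control 5xFAD (n = 6); points are libraries and bars are the mean ± SD. The groups do not overlap for Fcgr3 and Fcgr2b and overlap for Fcgr1, Fcgr4 and Fcer1g.

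Among the activating receptors, Fcgr3, the low-affinity receptor for IgG complexes, had 6.51, 9.97 and 11.4 CPM (lowest, median, highest) in cKO libraries and 12.3, 14.6 and 18.7 CPM in control libraries. No cKO library reached the lowest control library. The log2 change was -0.63 (SE 0.11; 9.53 ± 1.57 CPM in cKO against 14.8 ± 2.18 CPM in control, SD; edgeR quasi-likelihood test, Benjamini-Hochberg adjusted p = 0.00795), which is 1.54-fold lower. Fcgr1, the high-affinity IgG receptor, had 2.08, 2.97 and 3.61 CPM in cKO libraries and 2.78, 3.84 and 5.44 CPM in control libraries, so the groups overlapped. Its log2 change of -0.48 (SE 0.17) had an edgeR adjusted p of 0.474 and an unadjusted p of 0.00939.

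Fcgr4, which binds IgG2 subclasses and IgG complexes, was near the detection floor with 1 to 8 reads per cKO library and 2 to 11 per control library. It did not pass the filter on low counts and was not tested in the main fit, and its groups overlapped (0.205 ± 0.145 CPM in cKO and 0.266 ± 0.158 CPM in control, SD). Without that filter its log2 change was -0.38 (edgeR adjusted p = 0.835).

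Fcer1g, the shared ITAM chain without which the activating receptors are poorly displayed, had 5.60, 9.05 and 10.4 CPM in cKO libraries and 8.29, 9.78 and 10.7 CPM in control libraries. The ranges overlapped over most of their length. The log2 change was -0.19 (SE 0.12; edgeR adjusted p = 0.713), with an approximate 95% interval of -0.42 to 0.04.

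Fcgr2b, the inhibitory receptor, changed most among the 4 tested. It had 4.43, 4.97 and 5.80 CPM in cKO libraries and 6.63, 8.44 and 11.7 CPM in control libraries, with a clear gap between the groups. The log2 change was -0.78 (SE 0.13; 5.03 ± 0.556 CPM in cKO against 8.65 ± 1.90 CPM in control, SD; edgeR adjusted p = 0.00339), which is 1.72-fold lower. It ranked 19th by p among all tested genes and Fcgr3 ranked 30th. Both kept an adjusted p under 0.05 in all 13 fits that left out 1 library, where the highest was 0.0154 for Fcgr2b and 0.0322 for Fcgr3.

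Levels between genes were set per kilobase of exon, joined over all annotated isoforms. That length is 5790 bases for Fcgr2b, over 7 transcripts. The level of Fcgr2b, and every ratio to it, therefore depends on the isoform expressed, which was not measured. On this scale Fcer1g led with 9.66 CPM in cKO and 11.0 CPM in control. Fcgr3 followed with 5.49 and 8.50 CPM per kilobase in cKO and control. Fcgr1 (1.09 ± 0.200 in cKO, 1.52 ± 0.395 in control) and Fcgr2b (0.868 ± 0.0960 in cKO, 1.49 ± 0.329 in control) came next and were within their spread of each other in control, and Fcgr4 was lowest at 0.163 and 0.212.

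Activating against inhibitory was read as the ratio of each gene to Fcgr2b per kilobase in each library, with 0.5 reads added to every count, and carries no test. Every ratio has Fcgr2b as its denominator, and Fcgr2b had the largest fall of the tested members (log2 change -0.78). The positive differences below carry that fall and are not a gain of the other gene, as Fcer1g itself had a log2 change of -0.19. Fcer1g stood at 11.2 ± 2.42 times Fcgr2b in cKO libraries and 7.59 ± 1.45 times in control libraries (SD), a log2 difference of 0.55. In 5 of 7 cKO libraries this ratio was above every control library, and in the other 2 it lay among them. The Fcgr3 ratio was 6.38 ± 1.33 in cKO and 5.78 ± 0.702 in control, a log2 difference of 0.12 that is within the spread. The Fcgr1 ratio was 1.28 ± 0.289 in cKO and 1.04 ± 0.293 in control, a log2 difference of 0.30, also with overlap. The Fcgr4 ratio rests on few reads and differed by 0.33.

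**Figure D2:**
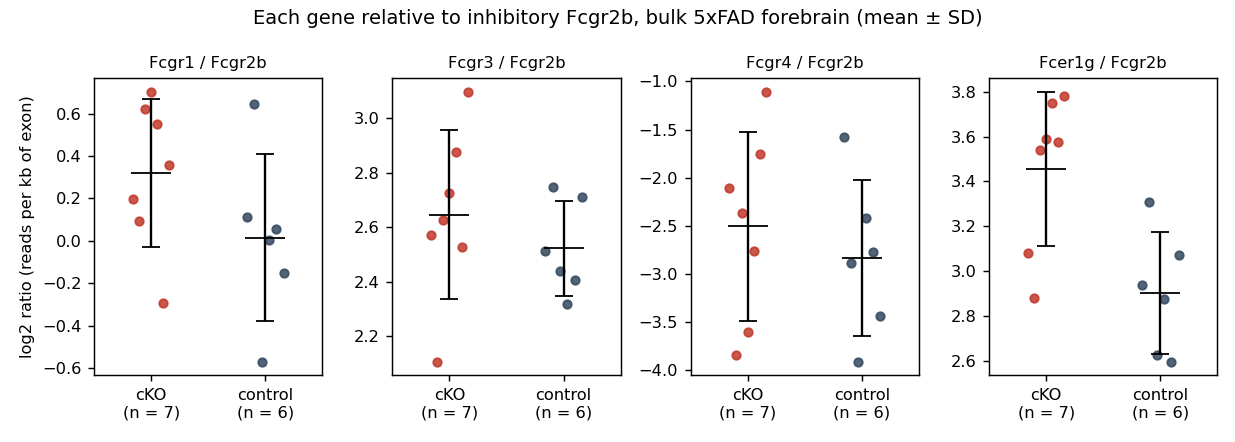
Log2 ratio of each gene to Fcgr2b, per kilobase of exon, in cKO 5xFAD (n = 7, left) and control 5xFAD (n = 6, right) libraries; points are libraries, bars the mean ± SD. Groups overlap for all 4 ratios, and the Fcer1g ratio is above all control libraries in 5 of 7 cKO libraries.

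The markers of microglia moved with these genes. Of 14 microglia markers, 9 fell and 0 rose, with a median log2 change of -0.59, and 9 had no overlap between groups. Over all genes tested 0.277% fell, and 0.313% had every cKO library below every control library. The summed level of the 14 markers was 388 to 422 CPM in cKO and 584 to 684 CPM in control. Without Cx3cr1 the sum was 364 to 394 CPM in cKO and 522 to 615 CPM in control. Itgam, the complement receptor subunit CD11b, fell by 0.76 on the log2 scale (SE 0.12; 4.18 ± 0.541 CPM in cKO and 7.08 ± 0.908 CPM in control; edgeR adjusted p = 0.00153). Cx3cr1, which the Cre allele interrupts, fell by 1.37 (SE 0.07; edgeR adjusted p = 5.03e-11). Their part in the change of the receptors was not tested. Relative to the summed CPM of the 13 markers without Cx3cr1, an alternative added after seeing the data, Fcgr2b differed by -0.22 and Fcgr3 by -0.09 on the log2 scale, Fcgr1 by 0.09 and Fcer1g by 0.34, and all 4 overlapped between groups. Fcer1g was above every control library in 5 of 7 cKO libraries on this scale. Summed markers of border macrophages spanned 14.5 to 16.3 CPM in cKO and 13.9 to 17.3 CPM in control (0 of 8 tested fell or rose), and those of neutrophils 5.40 to 11.0 and 8.74 to 17.2 CPM (0 of 4). The 4 tested neutrophil genes were all below 0, with a median log2 change of -0.63, and Csf3r had 5.71 CPM in cKO and 7.89 CPM in control (adjusted p = 0.201 by edgeR), while Ly6g was at 0.01 CPM in each group. In sorted microglia-like cells the neutrophil list summed to 194 UMI CPM in cKO and 205 in control, most of it Csf3r. Csf3r is therefore not particular to neutrophils here. Of the B and plasma cell markers 2 were tested and 0 fell or rose (median log2 change -0.48), and the list summed to 1.62 to 3.91 CPM in cKO and 2.30 to 5.10 CPM in control. The part of these lists in the change of the receptors was not tested. Monocyte markers summed to 84.4 to 113 CPM in cKO and 102 to 113 CPM in control (0 of 3).

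Genes around the receptors in the pathway were described from lists written by role. Over all 16956 genes tested 0.277% fell and 0.0531% rose, so a count of 0 in a short list is near that share. On the ligand side 0 of 5 tested immunoglobulin genes, which include classes other than IgG, fell or rose, with a median log2 change of 0.03. Ighm, the IgM heavy chain, had 24.0 ± 2.31 CPM in cKO and 24.6 ± 1.65 CPM in control. IgM is not the IgG that these receptors bind. The IgG heavy chain Ighg2c had 3.28 ± 0.672 and 3.18 ± 0.837 CPM, so each of these transcripts differed by less than its spread. The other Fc-binding genes had 1 of 5 tested that fell, Fcrls, an Fc receptor-like gene enriched in microglia. Fcrls had 19.3 ± 2.91 CPM in cKO and 34.1 ± 4.16 CPM in control, with no overlap (log2 change -0.82, SE 0.09; edgeR adjusted p = 3.75e-05). Fcgrt, the neonatal Fc receptor chain that recycles IgG, had 17.4 ± 2.23 and 17.6 ± 2.41 CPM in cKO and control (log2 change -0.02).

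Of the ITAM kinases and adaptors 1 of 24 tested fell, and the median log2 change was -0.17 beside 0.00 over all genes. That gene was Tyrobp, which makes DAP12, an ITAM adaptor of other myeloid receptors such as Trem2. It had 10.6 ± 2.26 CPM in cKO and 17.8 ± 2.59 CPM in control (log2 change -0.76, SE 0.12; edgeR adjusted p = 0.00316), and only the highest cKO library reached the lowest control library at 14.8 CPM. Lyn, a Src-family kinase that phosphorylates the receptors, had 9.19 ± 0.677 and 11.6 ± 1.38 CPM (log2 change -0.33; adjusted p = 0.202), and Syk had 3.80 ± 0.480 and 4.45 ± 1.02 CPM (log2 change -0.22; adjusted p = 0.726), so neither passed. On the inhibitory side 0 of 14 tested ITIM-side regulators fell or rose (median 0.00), while 1 fell with DESeq2 and 1 with no filter on low counts. Inpp5d, which makes SHIP1, had 13.2 ± 1.26 CPM in cKO and 16.9 ± 1.50 CPM in control (log2 change -0.35; adjusted p = 0.0633).

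The phagocytosis effectors had 2 of 25 tested that fell, with a median of -0.06. Dock2, a Rac activator of leukocytes, had 4.83 ± 0.576 CPM in cKO and 6.96 ± 0.891 CPM in control (log2 change -0.53, SE 0.11; edgeR adjusted p = 0.0359). Pld4, an endolysosomal exonuclease of the phospholipase D family, had 6.70 ± 0.677 and 9.46 ± 1.23 CPM (log2 change -0.50, SE 0.10; adjusted p = 0.0261). These calls depended on single libraries: the count was 0 without cKO replicate 3, 6 or 7 or control replicate 1, 2 or 5, and 1 without cKO replicate 2, 4 or 5 or control replicate 3 or 4. Of the 6 phagocyte oxidase genes, 0 fell or rose, and Cybb, the catalytic subunit, had 2.65 ± 0.809 CPM in cKO and 1.83 ± 0.784 CPM in control (log2 change 0.54; adjusted p = 0.638). FcR gamma co-receptors had 0 of 2 tested that fell or rose.

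**Figure D3:**
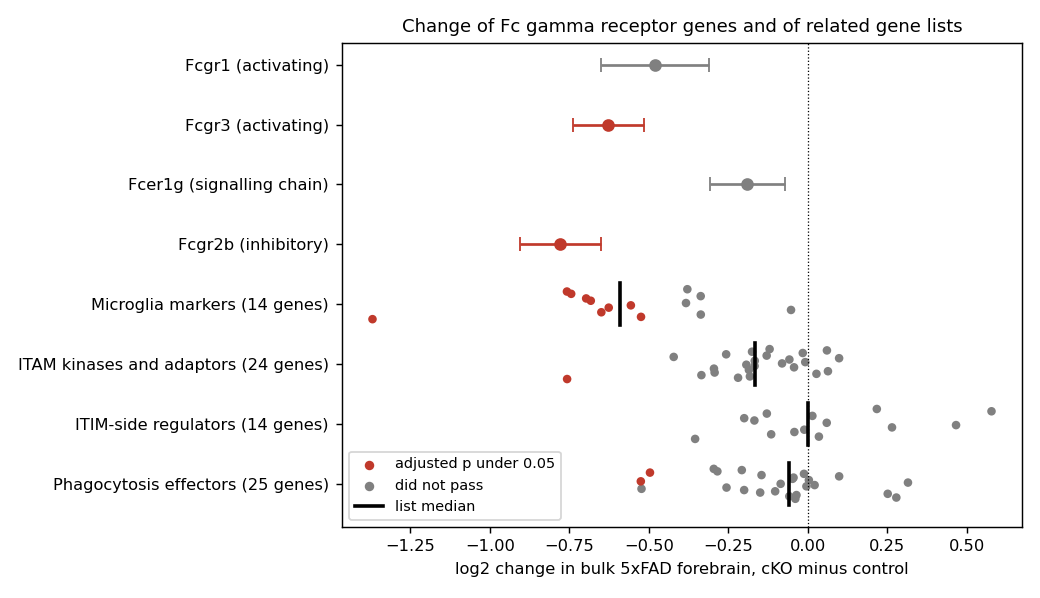
Log2 change (cKO minus control) in bulk 5xFAD forebrain for the 4 tested members (point and SE) and for each gene of 4 lists (points) with the list median (bar). Red marks adjusted p under 0.05: Fcgr3 and Fcgr2b among the members, 9 of 14 microglia markers, 1 of 24 ITAM genes, 0 of 14 ITIM-side genes and 2 of 25 phagocytosis genes.

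Within groups, the receptors followed each other to different degrees over the 13 bulk libraries, as Pearson correlations of log2 CPM after the group means were taken out, given as a description. Fcgr3 and Fcer1g had 0.74, Fcgr2b and Fcgr3 had 0.42, and Fcgr1 had 0.14 with Fcgr2b. Among 15420 genes with a mean of at least 1 CPM, Fcer1g was 86th in likeness to Fcgr3. The 3 genes most alike were Avpr1a (0.94), Top3a (0.83) and Nudt13 (0.81) for Fcgr1, and Fkbp14 (0.89), Cd59a (0.84) and Arhgef6 (0.84) for Fcgr2b. They were E2f5 (0.93), Dtl (0.91) and Cdkn1b (0.88) for Fcgr3, and Bbs12 (0.93), Zdhhc24 (0.90) and Col4a1 (0.89) for Fcer1g. Picking the highest of 15420 genes over only 13 libraries gives high values by itself. A shared regulation of these genes with the receptors was not tested.

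The single-cell libraries show the same genes per UMI in sorted microglia without 5xFAD, so they differ from the bulk design in both respects. Each genotype has 1 library, which allows no replicate check and no test, and intervals are exact 95% intervals for counting error only. Most cKO cells fell in one cluster (cluster 0, led by Lyz2 and Apoe; 6993 cKO and 313 control cells) and most control cells in another (cluster 1, led by Fos and Calr; 190 cKO and 5826 control cells), so the library totals compare mainly these clusters.

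**Figure D4:**
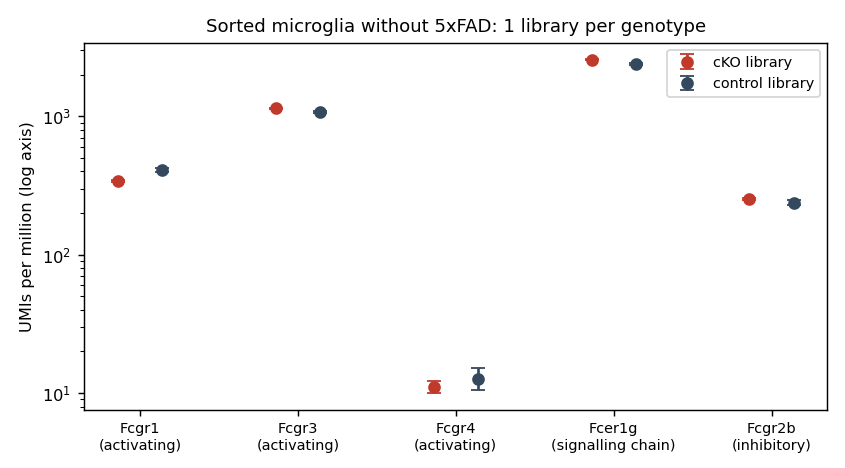
UMI CPM of each gene summed over microglia-like cells, cKO library left of control library, on a log axis; bars are exact Poisson 95% intervals. Fcer1g and Fcgr3 are highest in both libraries, Fcgr4 lowest, and Fcgr1 is lower in the cKO library.

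Both libraries ordered the genes as Fcer1g, Fcgr3, Fcgr1, Fcgr2b and Fcgr4 from high to low. Fcgr1 had 341 (335 to 347) UMI CPM in the cKO library and 410 (397 to 423) in the control library, 1.20-fold lower. Fcgr3 had 1141 and 1070 (cKO over control 1.07, 1.04 to 1.09), Fcer1g 2560 and 2386 (1.07, 1.06 to 1.09) and Fcgr2b 252 and 237 (1.06, 1.01 to 1.11). Fcgr4 had 11.0 and 12.7, with 421 and 115 UMIs, and an interval of the ratio from 0.708 to 1.08. Without the barcodes found in both libraries the ratios were 0.832 for Fcgr1, 1.07 for Fcgr3 and for Fcer1g, and 1.06 for Fcgr2b. None of the 4 members above 20 UMI CPM differed by 1.5-fold, where 1.80% of 6739 genes at that level were higher and 1.35% lower by at least that much. Relative to Fcgr2b, Fcer1g stood at 10.2 in cKO and 10.1 in control, Fcgr3 at 4.53 and 4.51, and Fcgr1 at 1.35 and 1.73.

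Cluster 0 alone held at least 200 cells of each library. There Fcgr1 had 336 UMI CPM in cKO cells and 388 in control cells, Fcgr2b 253 and 255, Fcgr3 1150 and 983, and Fcer1g 2554 and 1920. Within it the Fcer1g ratio to Fcgr2b was 10.1 (9.90 to 10.3) in cKO cells and 7.54 (6.44 to 8.88) in control cells. These intervals hold counting error only, so the gap between them does not measure a difference of genotypes. The control side is 313 cells, 5.01% of the control cells kept. Over all microglia-like cells the ratio was 10.2 in cKO and 10.1 in control. The Fcgr3 ratio was 4.55 (4.45 to 4.66) in cKO cells and 3.86 (3.27 to 4.59) in control cells.

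The small clusters gave the widest range of receptor levels. In cluster 2, led by Ifit3 and Ifitm3 (124 cKO and 63 control cells), Fcgr1 had 596 UMI CPM in cKO cells and 746 in control cells, and Fcgr4 had 56.1 (39.5 to 77.3) and 78.6 (33.9 to 155). In cluster 0 the same genes had 336 and 388, and 10.4 and 14.5. Fcgr1 and Fcgr4 were higher in cluster 2 than in cluster 0 in both libraries. Fcgr3 (992 and 894) and Fcer1g (2805 and 2554) were closer to their levels in cluster 0. In cluster 2 Fcgr4 rests on 37 UMIs in cKO and 8 in control. The upstream windows printed above were chosen for these levels, and a link of motif to level was not tested. Fcgr2b had 238 (202 to 278) in cKO cells and 354 (248 to 489) in control cells of this cluster, against 253 and 255 in cluster 0. The proliferating cluster 4, led by Mki67 and Top2a (55 cKO and 12 control cells), had Fcgr3 at 480 (411 to 557) in cKO cells and 697 (390 to 1150) in control cells. Clusters were built on 2000 variable genes that included 0 of the 5 members, though other genes of the same cells defined them, so these levels are a description.

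**Figure D5:**
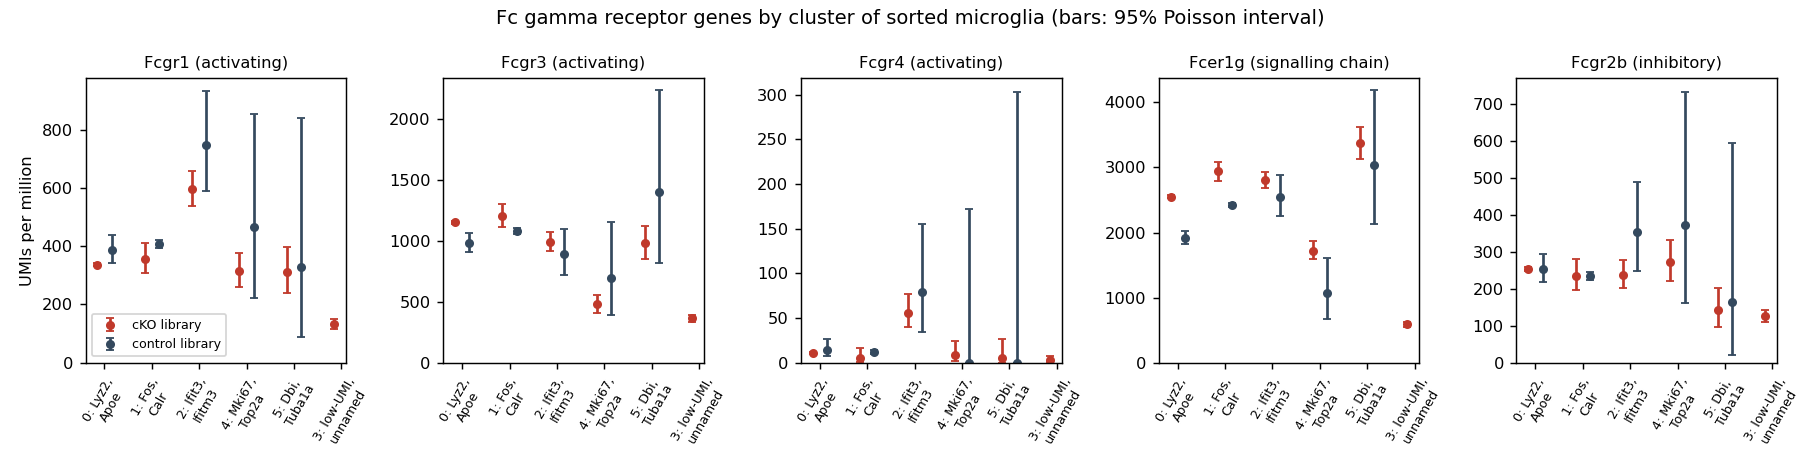
UMI CPM of each gene by cluster of sorted microglia (cKO left of control; bars are exact Poisson 95% intervals; groups of cells under 10 are not drawn). Fcgr1 and Fcgr4 are highest in the cluster led by Ifit3 and Ifitm3. Every gene is lower in cKO cells of cluster 3, whose cells have few UMIs, than in cKO cells of cluster 0.

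Among the pathway lists in single cells, read over genes with at least 20 UMI CPM in 1 library, the median log2 ratio was 0.05 over all genes. It was -0.16 over 3 other Fc-binding genes, -0.18 over 2 FcR gamma co-receptors, 0.01 over 22 ITAM genes, 0.13 over 11 ITIM-side genes, 0.07 over 24 phagocytosis genes and 0.17 over 5 oxidase genes. Clec4a3 was the 1 gene of these lists at that level past 1.5-fold, at 66.7 in cKO and 105 in control (ratio 0.636, 0.590 to 0.686). Over all 6739 genes at that level, 1.35% were lower and 1.80% higher by at least 1.5-fold. A count of 1 over these lists is near that share. Clec4a3 is a lectin of the FcR gamma co-receptor list, and its pairing with Fcer1g was not tested. The other gene of that list at that level, Lilra5, had a ratio of 1.23 (1.06 to 1.43). Below that level, Fgr, a Src-family kinase, had 247 UMIs in cKO and 13 in control (ratio 4.53, 2.60 to 8.62), and Cybb had 157 and 16 (ratio 2.34, 1.40 to 4.19). These genes, Gsn (ratio 2.37, 1.36 to 4.44) and Pira2 (ratio 1.93, 1.03 to 4.00) were chosen after their values were seen. Of the genes that fell in bulk, Tyrobp had 2893 and 2822 UMI CPM here (1.03, 1.01 to 1.04), Fcrls had a ratio of 0.895 (0.879 to 0.910), Dock2 had 220 and 219, and Pld4 had 492 and 617. Ighm had 285 and 288. The light chain gene Igkc had 1 UMI in cKO and 10 in control, and Iglc1 and Iglc2 had 0 in each. What the Ighm counts stand for in these cells was not tested. Cx3cr1 had a ratio of 0.527 (0.521 to 0.533).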

How the data were processed

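Forebrain RNA of 5xFAD mice and sorted microglia of mice without 5xFAD were measured. The bulk values are raw read counts per gene that the authors deposited, for which the submitters' processing notes name HISAT2 2.0.5, featureCounts 1.5.0-p3 and mm10. The single-cell values are UMI counts that the authors deposited, per the file headers from Cell Ranger 6.1.0, on mm10 per the same notes. The members and gene lists were chosen with earlier results of these data known.

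Bulk counts were fitted in edgeR 4.0.16 (R 4.3.3; filterByExpr, TMM, robust quasi-likelihood F-test, two-sided, Benjamini-Hochberg over 16956 genes, threshold 0.05), with a biological coefficient of variation of 10.0%. Libraries of one group differed by a chi-square of at least 2.75 per degree of freedom, so no pair differed by counting error alone. This does not show that each library is its own mouse. The named pathway genes are those past the threshold, plus genes needed to read a list, and the genes most alike are the 3 with the highest within-group correlation.

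Cells with at least 500 genes and at most 10% mitochondrial UMIs were clustered with scanpy 1.11.5 (Python 3.11.15; 2000 variable genes, 30 components, 15 neighbours, Leiden resolution 0.5). Doublets were not removed. Clusters with at least 3 detected microglia markers were called microglia-like; cluster 3 was left unnamed for its low UMIs, at 0.248 of the library median, and cluster 6 for choroid plexus genes, by markers added after seeing the data. Names were rebuilt here and can differ from the study's. Gene positions are from GENCODE M21 and promoter windows from RefSeq. Alternatives were RLE scaling, DESeq2 1.42.0, no filter, a replicate block, leaving out libraries and, for cells, other cell sets, thinning and scaling.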

Additional observations from a re-analysis of the deposited data

How the results depend on the processing

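In bulk, the calls for Fcgr2b and Fcgr3 stood under RLE scaling, DESeq2 and no filter on low counts, and leaving out single libraries gave log2 changes of -0.84 to -0.67 for Fcgr2b and -0.68 to -0.55 for Fcgr3. Fcgr1 (-0.56 to -0.37) and Fcer1g (-0.24 to -0.11) did not pass in any of these fits. Replicate numbers did not pair the libraries (correlation of same-numbered libraries -0.35 to 0.19, over 0.1 in 3 of 6 pairs; 2 of 6 correlated best with their own number). With a replicate block Fcgr2b had a log2 change of -0.73 (adjusted p = 0.117), so 1 member and 0 phagocytosis effectors fell, in place of 2 and 2; the cause was not tested. Over all genes 47 fell and 9 rose, against 61 and 22 with DESeq2, 59 and 23 with no filter, 21 and 1 with the block, and 30 to 50 and 3 to 23 without single libraries. In single cells the cKO over control ratio moved beyond its counting interval in some settings, and stayed on its side of 1 for each member. It was 1.03 for Fcgr3 and 1.04 for Fcer1g in all filtered cells, and 1.03 for each in all barcodes. In cells with at least 1000 genes it was 0.883 for Fcgr1, 1.12 for Fcgr3 and 1.11 for Fcer1g. Under median-ratio scaling it was 1.04 for Fcgr3 and for Fcer1g. Thinned to 1000 UMIs per cell (7411 cKO and 5637 control cells; 60 and 587 left out), it was 0.878 for Fcgr1 and 1.05 for Fcer1g, and the ratio to Fcgr2b was 1.42 in cKO and 1.73 in control for Fcgr1, 9.93 and 10.2 for Fcer1g, and 4.52 and 4.55 for Fcgr3. The order of the libraries turned for the last of these and for Fcer1g, within counting error; over all filtered cells it turned too, at 4.50 and 4.51 for Fcgr3 and at 10.1 in each for Fcer1g. Depth limits Fcgr4 in both data sets.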

Other observations

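Cluster 3, which no label names and whose cells have few UMIs, held 1369 cKO and 4 control cells and was led by Gm26917 and Dst. Its cKO cells had 588 UMI CPM of Fcer1g, 365 of Fcgr3, 131 of Fcgr1 and 125 of Fcgr2b, against 2554, 1150, 336 and 253 in cKO cells of cluster 0. The Fcer1g ratio to Fcgr2b was 4.71 (4.07 to 5.47) there and 10.1 in cKO cells of cluster 0. Cluster 6, led by Ttr and Enpp2, held 34 cKO and 15 control cells, with 909 and 1027 UMI CPM of Fcer1g.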
